A study of Rattus norvegicus with 18 samples.

Results

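The 10 genes described here encode pore-forming and auxiliary subunits of voltage-gated calcium channels, chosen by name from the count table: Cacna1a, Cacna1b, Cacna1c, Cacna1d, Cacna1e, Cacna1g, Cacna1h, Cacna1i, Cacna2d1 and Cacna2d2. All 10 were among the 17455 genes listed, and all 10 were among the 13338 expressed highly enough to be tested. The data are polyadenylated RNA libraries of left hippocampi, taken from male adult rats of the Sprague-Dawley strain, and cover 2 rat models of temporal lobe epilepsy. The stated time of dissection was 24 hours after the last seizure, and how it applied to the shams cannot be told from the labels. Rats of the first model (KA) carried implanted electrodes and received stepwise injections of kainic acid, which activates glutamate receptors, until status epilepticus. Rats of the second model (KI, for kindling) were stimulated through hippocampal electrodes 2 times a day until they were kindled. The groups were KA 3 Class V (n = 3), KA sham (n = 7), KI 3 Class V (n = 4) and KI sham (n = 4). The sources used here explain neither what 3 Class V stands for in each model nor what the sham animals underwent, and no label names an altered allele.

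Voltage-gated calcium channels open when the membrane depolarises and let calcium into the cell, where it triggers transmitter release, shapes burst firing and signals to the nucleus. The Cacna1 genes encode the pore. P/Q-type (Cacna1a), N-type (Cacna1b) and R-type (Cacna1e) channels act largely at presynaptic terminals and in dendrites, L-type channels (Cacna1c and Cacna1d) couple activity to gene expression, and T-type channels (Cacna1g, Cacna1h and Cacna1i) open at low voltage and support bursting. The Cacna2d genes encode alpha2delta subunits, which raise the number of channels at the membrane and include the binding sites of gabapentin and pregabalin.

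The 18 libraries held 30925368 to 49943021 counts each. A single channel gene had between 214 counts (Cacna2d2 in KI sham 1) and 11021 counts (Cacna1a in a KI 3 Class V library). Several libraries stood apart. A score over 88 ribosomal protein genes, the mean of their centred log2 CPM (counts per 1000000, scaled for library size and composition), lay at −0.49 to −0.19 in KI 3 Class V, against −0.34 to 0.69 in KI sham, and at −0.12 to 0.09 in KA 3 Class V, against −0.49 to 0.97 in KA sham. Genes resembling ribosomal RNA were unusually abundant in 3 libraries, namely KI 3 Class V 1 (16.3% of counts), KI sham 2 (16.4%) and KA sham 4 (9.67%), against at most 2% elsewhere. Markers of the hippocampus were present: 11 CA pyramidal cell genes summed to 1143 to 1513 CPM in KA 3 Class V, 1483 to 2062 CPM in KA sham, 1529 to 2060 CPM in KI 3 Class V and 1459 to 2200 CPM in KI sham. These are bulk samples, so fewer cells of a type and less RNA per cell cannot be told apart.

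The 250 bases upstream of the RefSeq start (build GRCr8) are shown for Cacna1b and Cacna2d1, because both rose in kindled rats (values below) and belong to the channel complex at release sites. Of the 10 genes, 7 matched the promoter table and Cacna1g, Cacna1h and Cacna1i did not. Both sequences are written 5′ to 3′ on the strand of the gene, which is the minus strand for each, with Cacna1b at chr3:27944286-27944535 and the first of 3 listed starts of Cacna2d1 at chr4:20330148-20330397. Capitals mark matches on either strand to GCGNGGGCG, the core letters bound by factors of the EGR family, or to the GC box GGGCGG, and matches to these overlap.

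Cacna1b: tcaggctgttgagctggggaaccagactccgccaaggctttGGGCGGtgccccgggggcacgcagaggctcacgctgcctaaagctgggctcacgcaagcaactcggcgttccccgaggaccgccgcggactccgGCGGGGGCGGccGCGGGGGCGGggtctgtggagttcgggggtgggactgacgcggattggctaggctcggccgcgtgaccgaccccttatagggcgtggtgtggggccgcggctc

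Cacna2d1: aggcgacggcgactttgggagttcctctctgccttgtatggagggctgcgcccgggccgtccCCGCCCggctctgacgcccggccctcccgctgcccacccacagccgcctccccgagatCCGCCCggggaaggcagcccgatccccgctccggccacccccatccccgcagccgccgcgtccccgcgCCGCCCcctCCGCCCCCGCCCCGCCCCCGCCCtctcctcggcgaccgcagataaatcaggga

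The EGR letters occurred 2 times in each of these sequences and in 4 of the 7 matched channel genes (Cacna1b, Cacna1d, Cacna2d1 and Cacna2d2), against 4.53% of 27457 promoters of the same length. The GC box occurred in 5 of 7, against 32.4%. Both strings of letters are made of G and C apart from the N. The promoters of these 5 genes, which include the 4 above, were 72.0% (Cacna1b) to 88.8% (Cacna1d) G or C. The median over all promoters was 52.0%, so these shares are not matched for base composition. The letters TGACGTCA of the cyclic AMP response element (1.70% of promoters), TGANTCA of AP-1 (6.36%) and the E-box CACGTG (5.79%) occurred in 0 of 7. Of the 7, 6 lay at or above the median of 6 CpG pairs per 250 bases, with 56 in Cacna1d, 36 in Cacna2d2, 34 in Cacna1a, 32 in Cacna2d1, 28 in Cacna1b and 6 in Cacna1e, and Cacna1c had 3. A letter match describes the sequence and does not show that a factor binds there.

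In kindled rats all 10 channel transcripts averaged higher than in their shams. Of the 10 genes, 4 rose in KI 3 Class V at an edgeR quasi-likelihood adjusted p below 0.05: the N-type gene Cacna1b, the T-type genes Cacna1g and Cacna1h and the alpha2delta gene Cacna2d1. The other 6 had positive log2 fold changes that did not pass, and 0 fell. Across all genes, 4.74% were called higher and 5.25% lower in this comparison, and the median log2 fold change was −0.04, against 0.96 over the 10 channel genes (range 0.45 to 1.72). An unadjusted p below 0.05 with a higher level was reached by 9 of the 10 and by 17.2% of all genes. All KI 3 Class V libraries lay above all KI shams for 5 of the 10 genes and for 12.1% of all genes, and below them for 0 of the 10 and for 8.07% of all genes. In the KA model 0 of the 10 passed and 0 of the 10 separated the groups.

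**Figure D1:**
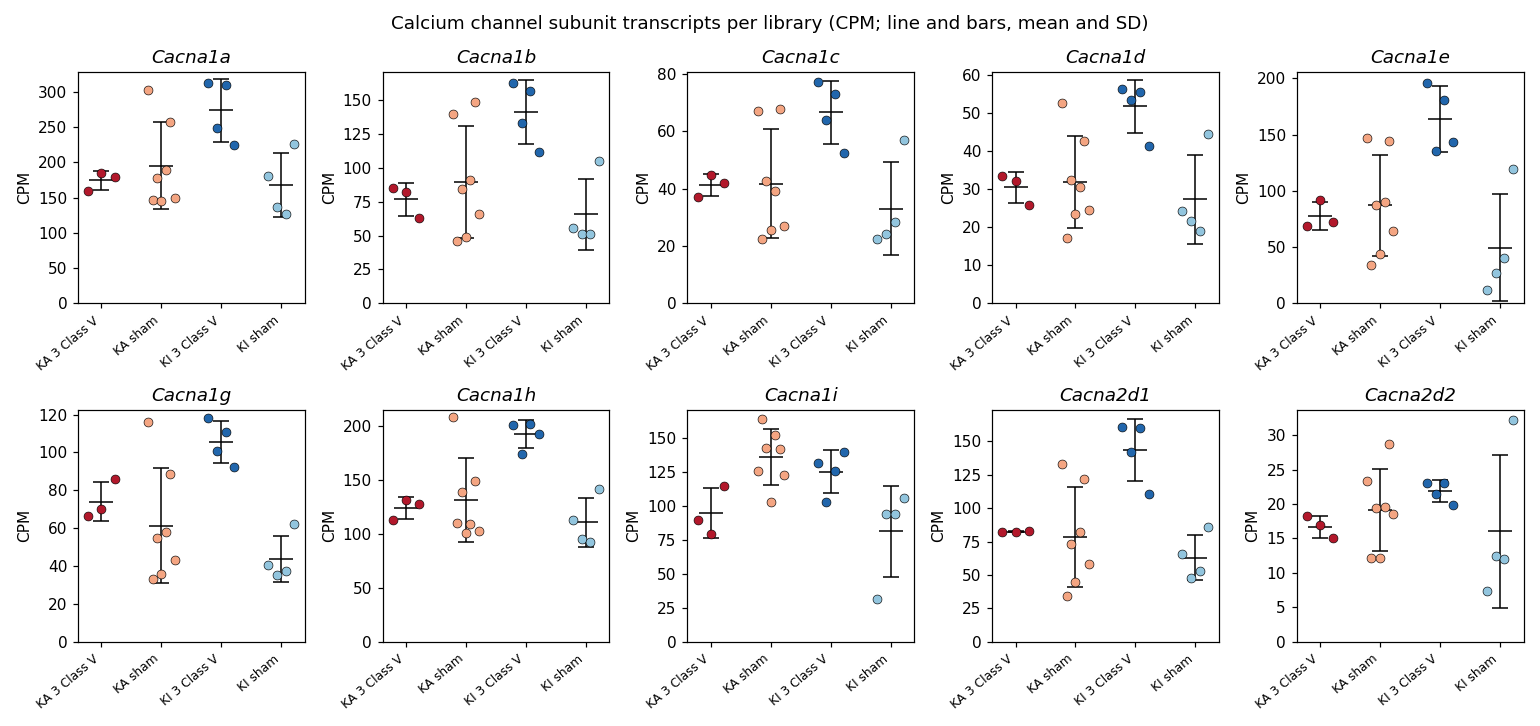
Transcript level (CPM, vertical axis, from 0) of each channel gene in every library of the 4 groups, with a line at the mean and bars for 1 SD. The KI 3 Class V points sit above all KI sham points for Cacna1b, Cacna1e, Cacna1g, Cacna1h and Cacna2d1, and KI sham 4 is the highest KI sham point in all 10 panels.

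The N-type pore gene Cacna1b had 163, 133, 157 and 112 CPM in the KI 3 Class V libraries, against 55.8, 51.5, 51.1 and 105 CPM in the KI shams. Every KI 3 Class V library lay above every sham, with KI sham 4 close to the lowest of them. The log2 fold change was 1.10 ± 0.34 (SE, edgeR adjusted p = 0.0487). Cacna1a, the P/Q-type gene that carries much of the calcium for fast release, had 313, 248, 310 and 224 CPM in KI 3 Class V, against 181, 137, 127 and 226 CPM in KI sham. The groups overlapped through KI 3 Class V 4 and KI sham 4, and the log2 fold change of 0.71 ± 0.24 did not pass (edgeR adjusted p = 0.0585).

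In the KA model neither presynaptic pore gene was called. Cacna1b had 85.5, 82.1 and 63.1 CPM in KA 3 Class V, against 46.3, 84.6 and 149 CPM (lowest, median and highest of 7) in KA sham. Cacna1a had 159, 185 and 179 CPM in KA 3 Class V, against 145, 178 and 303 CPM in KA sham (lowest, median and highest). The 3 Class V libraries lay inside the sham range for both genes. The log2 fold changes were −0.22 (95% interval −0.91 to 0.48) for Cacna1b and −0.16 (−0.65 to 0.32) for Cacna1a, with edgeR adjusted p of 0.873 and 0.861.

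Cacna1e, the R-type pore gene found in dendrites and terminals, had the widest spread of the 10. It had 196, 135, 181 and 143 CPM in KI 3 Class V, against 12.3, 26.7, 40.1 and 119 CPM in KI sham. The groups did not overlap, yet KI sham 4 stood far above the other 3 shams and gave the KI sham group an SD of 47.8 around a mean of 49.6 CPM. The log2 fold change of 1.72 ± 0.54 was the largest of the 10 in KI but it just missed the threshold (edgeR adjusted p = 0.0505). Without KI sham 4 it was 2.60 (edgeR adjusted p = 0.0083). In the KA model Cacna1e had 69.0, 91.7 and 72.3 CPM in 3 Class V, against 34, 87.5 and 147 CPM (lowest, median and highest) in KA sham, and the interval of the log2 fold change ran from −1.26 to 0.92.

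Neither L-type gene passed in KI. Cacna1c, the main L-type pore of brain and heart, had 77.3, 64.0, 72.9 and 52.3 CPM in KI 3 Class V, against 22.4, 24.3, 28.5 and 57.0 CPM in KI sham. Cacna1d, whose channels open at somewhat lower voltage, had 56.4, 53.6, 55.6 and 41.5 CPM in KI 3 Class V, against 24.2, 21.7, 19 and 44.5 CPM in KI sham. In both genes KI sham 4 exceeded KI 3 Class V 4, the lowest of its group, and the other 3 shams lay well below. The log2 fold changes of 1.01 ± 0.35 and 0.92 ± 0.30 did not pass (edgeR adjusted p = 0.0627 and 0.0553).

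In the KA model the L-type genes averaged nearly the same in both groups, with a wide spread among shams. Cacna1c averaged 41.3 ± 3.91 CPM in KA 3 Class V (SD, n = 3) and 41.7 ± 19 CPM in KA sham (SD, n = 7). Cacna1d averaged 30.5 ± 4.11 CPM in KA 3 Class V (SD, n = 3) and 32 ± 12.2 CPM in KA sham (SD, n = 7). The 95% intervals of the log2 fold changes were −0.72 to 0.69 for Cacna1c and −0.68 to 0.54 for Cacna1d.

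The T-type genes held 2 of the 4 calls in KI. Cacna1g had 118, 101, 111 and 92.2 CPM in KI 3 Class V, against 40.7, 35.4, 37.4 and 61.9 CPM in KI sham. Cacna1h, a T-type gene much studied in experimental epilepsy, had 201, 174, 202 and 193 CPM in KI 3 Class V, against 113, 95.4, 92.8 and 142 CPM in KI sham. In both genes every 3 Class V library lay above every sham, KI sham 4 included. The rise was 1.27 ± 0.32 in log2 for Cacna1g and 0.79 ± 0.20 for Cacna1h (SE, edgeR adjusted p = 0.0329 and 0.0328).

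Cacna1i, the third T-type gene, had an outlying low sham in KI. It had 132, 103, 126 and 140 CPM in KI 3 Class V, against 31.2, 93.8, 93.8 and 106 CPM in KI sham, so that KI sham 1 alone was far below the others. KI sham 1 was also the lowest KI sham for Cacna1c, Cacna1e and Cacna2d2. For Cacna1i the KI change was smaller without that library. The log2 fold change was 0.63 ± 0.26 (edgeR adjusted p = 0.103), and 0.36 without KI sham 1. In the KA model it had 89.5, 79.2 and 115 CPM in 3 Class V, against 103, 142 and 164 CPM (lowest, median and highest) in KA sham. This was the lowest log2 fold change of the 10 in KA, −0.53 with a 95% interval of −1.07 to 0.02 (edgeR adjusted p = 0.53).

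Cacna1g and Cacna1h did not pass in KA. Cacna1g had 66.3, 70.0 and 85.7 CPM in KA 3 Class V, against 33.0, 55.0 and 116 CPM (lowest, median and highest) in KA sham, and its log2 fold change of 0.27 ± 0.31 was the highest of the 10 there (edgeR adjusted p = 0.816). Cacna1h had 113, 132 and 128 CPM in KA 3 Class V, against 101, 110 and 209 CPM in KA sham (lowest, median and highest). The 3 Class V libraries fell within the sham range for both genes.

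Of the alpha2delta genes, Cacna2d1 rose in KI. It had 161, 142, 160 and 111 CPM in KI 3 Class V, against 66.0, 47.3, 52.7 and 85.8 CPM in KI sham. The groups did not overlap, and the log2 fold change was 1.19 ± 0.33 (SE, edgeR adjusted p = 0.0396). Cacna2d2, which is prominent in interneurons and cerebellum, had 23.1, 21.5, 23.1 and 19.9 CPM in KI 3 Class V, against 7.40, 12.4, 12.0 and 32.3 CPM in KI sham. Here KI sham 4 was above every 3 Class V library while the other shams were below, and the log2 fold change of 0.45 ± 0.34 did not pass (edgeR adjusted p = 0.341). Without KI sham 4 it was 1.01 (edgeR adjusted p = 0.0134), and without KI sham 1 it was 0.21 (edgeR adjusted p = 0.663).

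In KA 3 Class V the 3 libraries were almost equal for Cacna2d1, at 81.9, 82.4 and 82.6 CPM, against 34, 73.1 and 133 CPM in KA sham (lowest, median and highest). Cacna2d2 averaged 16.7 ± 1.58 CPM in KA 3 Class V (SD, n = 3) and 19.1 ± 5.89 CPM in KA sham (SD, n = 7). Neither was called (edgeR adjusted p = 0.966 and 0.890). In KA, edgeR called 0 of the 10 channel genes and 0.172% of all genes, and 0 of the 10 had an unadjusted p below 0.05, against 6.34% of all genes on the higher side and 3.59% on the lower. DESeq2 also called 0 and limma-voom called 1, Cacna1i at −0.65 (limma-voom adjusted p = 0.0081), and 5.44% of all genes. Libraries of KA 3 Class V lay wholly above or wholly below those of KA sham for 0 of the 10, and for 2.95% and 2.70% of all genes. The median log2 fold change of the 10 in KA was −0.12, against −0.01 over all genes.

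**Figure D2:**
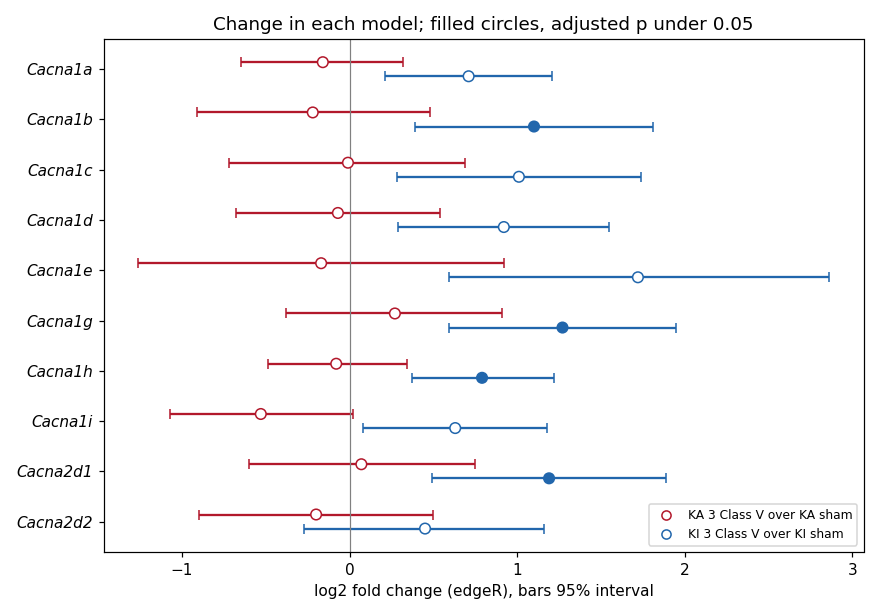
Log2 fold change (horizontal axis) of each channel gene in KA 3 Class V over KA sham (red) and in KI 3 Class V over KI sham (blue), with bars for the 95% interval from edgeR. Filled circles passed an adjusted p of 0.05, which 4 genes did in KI and 0 did in KA, and 9 of the 10 KI intervals lie above 0.

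The difference between the models was tested as the KA change minus the KI change. All 10 differences were negative, with a median of −1.01 against 0.01 over all genes, and ran from −1.89 ± 0.76 for Cacna1e to −0.65 ± 0.48 for Cacna2d2. None of the 10 passed in edgeR, where 3.80% of all genes were called 3.15% as higher and 0.652% as lower. Cacna1i (−1.15 ± 0.37, edgeR adjusted p = 0.0923) and Cacna1h (−0.87 ± 0.28, edgeR adjusted p = 0.0958) came closest. At an unadjusted p below 0.05 there were 8, all on the lower side, where 9.17% of all genes lay, while DESeq2 called 2 (Cacna1h and Cacna1i) and 8.39% of all genes, and limma-voom called 10 and 35.8% of all genes. Without KI sham 4 edgeR called 4 (Cacna1b, Cacna1e, Cacna1h and Cacna2d2) and 5.23% of all genes. Without KI sham 1 it called Cacna1i alone of the 10 and 6.73% of all genes. The KI change passing for 4 genes and the KA change for 0 therefore does not by itself show that the models differ for those genes.

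Between the shams, all 10 genes averaged higher in KA sham than in KI sham, by a median log2 fold change of 0.32, and 0 of 10 passed in edgeR (0.00750% of all genes did). Cacna1i had the smallest p, at 136 ± 20.3 CPM in KA sham (SD, n = 7) and 81.3 ± 33.9 CPM in KI sham (SD, n = 4), with a log2 fold change of 0.74 ± 0.24 (unadjusted p = 0.00587 and edgeR adjusted p = 0.564). It was the 1 gene of the 10 with an unadjusted p below 0.05, against 4.05% of all genes on the higher side and 4.58% on the lower. The sham groups overlapped for all 10, while 0.480% of all genes lay wholly above and 0.180% wholly below. DESeq2 called 0 and limma-voom called 2, Cacna1e and Cacna1i, and 3.08% of all genes. Cacna1e differed most in size, at 87.2 ± 44.8 CPM in KA sham (SD, n = 7) and 49.6 ± 47.8 CPM in KI sham (SD, n = 4).

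Ordered by group mean, KI 3 Class V was highest for 9 of the 10 genes and KI sham lowest for all 10, with the KA groups between them. The exception was Cacna1i, highest in KA sham at 136 CPM, with KI 3 Class V next at 126 CPM. KA sham averaged above KA 3 Class V for 8 genes, and these neighbours overlapped in all 10. The libraries of KI 3 Class V and KA sham also overlapped in all 10 genes, since KA sham 1 and 6 reached levels near those of kindled rats, so the order of these group means is not separated by the spread between libraries.

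How far the KI calls rested on single libraries was read from refits. Leaving out KI sham 4 raised the count from 4 to 10 of 10 (32.3% of all genes were then called), and leaving out KA sham 1, 2 or 6, which enter through the shared spread, raised it to 8 (12.8%, 18.3% and 12.4% of all genes). Leaving out KI 3 Class V 4 or KI sham 1 left 2 (3.95% and 7.98% of all genes). Leaving out KI 3 Class V 1, 2 or 3 left 0, with 0.0675% of all genes called each time, and leaving out KI sham 2 or 3 left 0, with 3.40% and 0.999%. The count for the channel genes moved with the count over the whole table. The direction did not turn in any of these refits: all 10 log2 fold changes were positive in each, with medians from 0.86 to 1.29. DESeq2 called 8 of the 10 and 22.3% of all genes, and limma-voom called 10 and 55.2% of all genes. Without the 3 libraries rich in genes resembling ribosomal RNA the count was 0 with a median of 0.79, and 0.128% of all genes were called. Upper quartile scaling gave 3, and moved the calls over all genes to 333 higher and 978 lower, against 632 and 700 with TMM.

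The mean level of the channel genes moved inversely with the ribosomal protein score. By gene, Pearson r with the score over the 18 libraries ran from −0.937 (Cacna1c) to −0.748 (Cacna1h), apart from Cacna1i at −0.343. The mean of the 10 genes (centred log2 CPM) was 0.42 to 0.78 in the KI 3 Class V libraries, whose ribosomal protein scores were all below −0.18. It was −0.89, −0.70 and −0.63 in KI sham 1, 2 and 3, whose scores were 0.69, 0.24 and 0.42, and 0.30 in KI sham 4, whose score was −0.34. The same held among KA shams, which share 1 label: KA sham 1 and 6 had channel means of 0.65 and 0.55 at scores of −0.40 and −0.49, and KA sham 2, 4 and 7 had −0.67, −0.59 and −0.33 at scores of 0.97, 0.44 and 0.46.

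**Figure D3:**
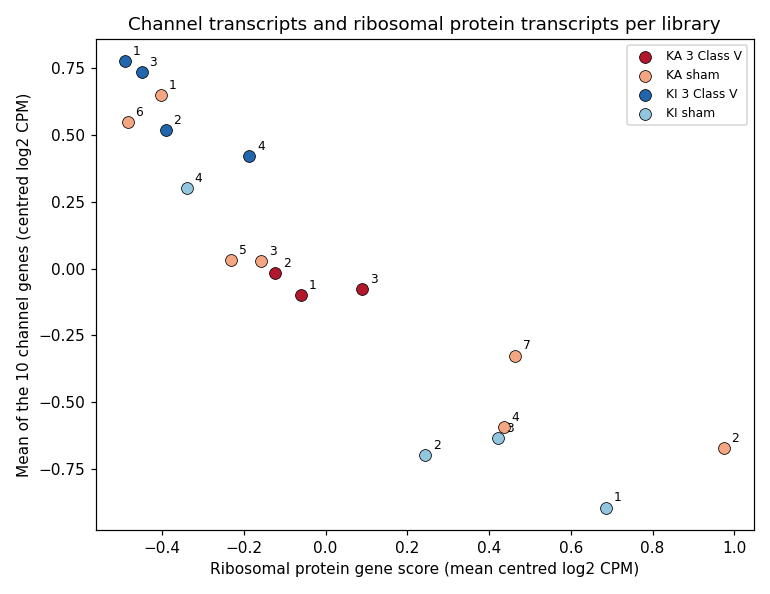
Mean centred log2 CPM of the 10 channel genes (vertical axis) against the ribosomal protein gene score (horizontal axis) in the 18 libraries, numbered by replicate and coloured by group. KI 3 Class V lies at the upper left, KI sham 1, 2 and 3 at the lower right, and KA sham libraries spread over the whole range.

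When that score was added to the fit, 0 of the 10 passed in KI and the median log2 fold change was 0.46 in place of 0.96. Of the 10, 9 were positive. The values were 0.97 ± 0.28 for Cacna1e (edgeR adjusted p = 0.0887), 0.66 ± 0.21 for Cacna1g, 0.51 ± 0.17 for Cacna1h, 0.49 ± 0.21 for Cacna2d1 and 0.43 ± 0.17 for Cacna1b, and Cacna2d2 was at −0.05 ± 0.21 (edgeR adjusted p from 0.108 to 0.909 for these 5). Over all genes, 0.787% were called in that fit in place of 9.99%.

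**Figure D4:**
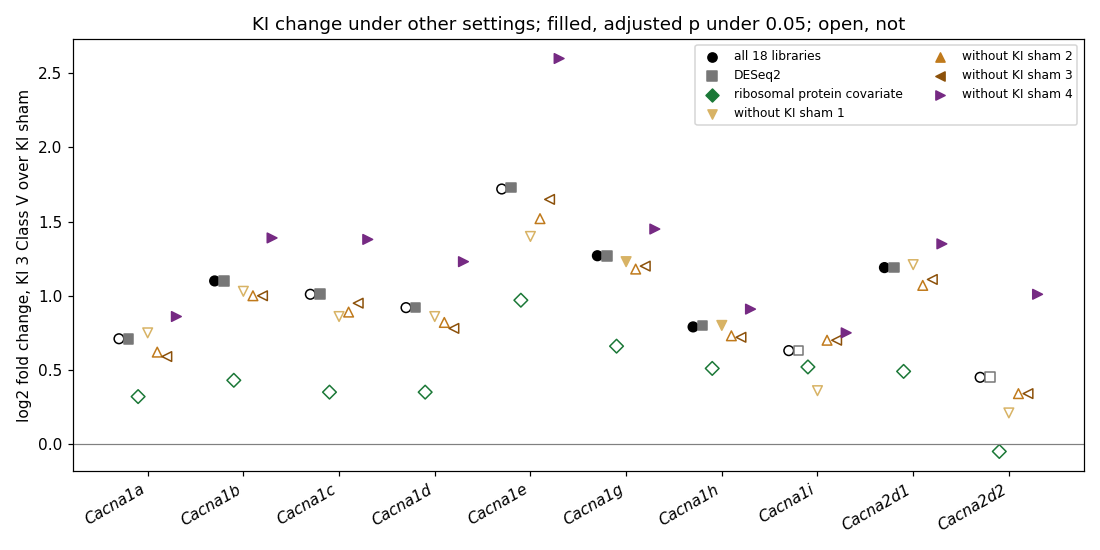
Log2 fold change of each channel gene in KI 3 Class V over KI sham (vertical axis) with all 18 libraries, with DESeq2, with the ribosomal protein covariate and without each KI sham in turn. Filled symbols passed an adjusted p of 0.05; values without KI sham 4 are the highest for all 10 genes, and the covariate gives the lowest for all but Cacna1i, which is lowest without KI sham 1.

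Markers of other cell types also differed between the KI groups, where 4.74% of all genes were called higher and 5.25% lower. Of 12 microglia markers, 8 fell and 0 rose in KI 3 Class V, and their summed level was 626.9 to 648.4 CPM in KI 3 Class V, against 926.5 to 2015 CPM in KI sham. Of 8 genes of macrophage lysosomes and activation, 6 fell, and the sum was 113.9 to 130.3 CPM in KI 3 Class V, against 119.0 to 927.9 CPM in KI sham. Of 10 oligodendrocyte markers, 2 fell (sum 10240 to 14270 CPM in KI 3 Class V, against 16150 to 21740 CPM in KI sham). Choroid plexus markers summed to 1426 CPM in KI sham 4 and to 113.6 to 191.9 CPM in the other 7 KI libraries. The part of these cell types in the channel result was not tested.

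Few genes were called in the neuronal lists, and 9.99% of all genes were called in KI. Of 11 CA pyramidal markers 1 rose and 0 fell, of 10 interneuron markers 1 rose and 0 fell, and of 5 tested dentate granule markers 0 rose and 1 fell. The uncalled changes leaned upward in 2 of these lists. Median log2 fold changes were 0.54 for interneurons (7 of 10 positive) and 0.72 for dentate granule cells (4 of 5 positive). For pyramidal cells the median was 0.08 (6 of 11 positive), and over all genes it was −0.04. The part of neuronal content in the channel result was not tested. Interneuron markers summed to 1383 to 1539 CPM in KI 3 Class V, against 748.8 to 1453 CPM in KI sham. These sums overlapped between the groups through KI sham 1, and pyramidal sums overlapped too. Of 10 astrocyte markers 1 rose, of 8 endothelial and pericyte markers 1 fell, of 7 thalamic markers 2 fell, and of 10 choroid plexus and 4 tested blood genes 0 were called. In each of these lists 0 genes were called in KA, where 0.172% of all genes were called.

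Across libraries most of the channel genes varied together. Over the 18 libraries the 45 pairs had a median Pearson r of 0.884, and of 0.821 after each group's mean was removed. The points share library depth and scaling, so these are descriptions. No r for pairs of other genes is set beside them, so they do not show co-variation particular to this family. The main axis of variation over all tested genes (first principal component) held 34.9% of the variance. KI sham 1, with the lowest channel mean (−0.89), lay at 61.21 on that axis. KI 3 Class V 1, with the highest channel mean (0.78), lay at −37.8. The closest pairs were Cacna1b with Cacna1d (r = 0.971), Cacna1b with Cacna1c (0.961) and Cacna1g with Cacna2d1 (0.961). Cacna1i stood apart, with a median r of 0.289 to the other 9, and Cacna2d2 had a median of 0.702.

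**Figure D5:**
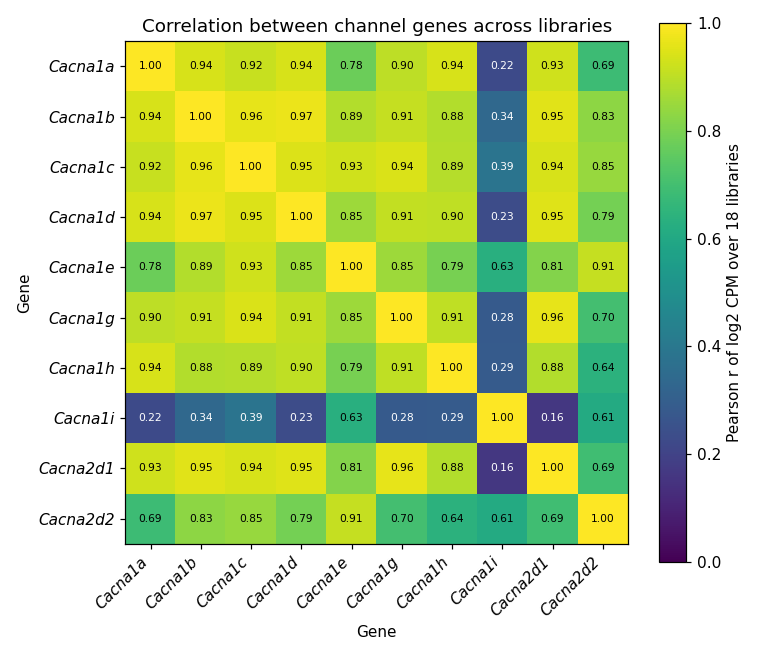
Pearson r of log2 CPM over the 18 libraries for each pair of channel genes, with colour from 0 to 1. The row of Cacna1i is the darkest, with r from 0.16 to 0.63, while every pair without it is at 0.64 or above.

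Genes outside the family with the most similar profile to the mean of the 10 were Celsr2, a cadherin of the planar polarity system (r = 0.993 over 18 libraries), Vps13d (0.982), the sodium-calcium exchanger gene Slc8a1 (0.981), the kinesin gene Kif3c (0.980) and Herc2 (0.978). Cacna1e was closest to the NMDA receptor gene Grin2a (r = 0.997) and to Slc4a8 (0.992), Cacna1b to Rapgef2 and Tmem178b (0.991 each), Cacna2d1 to the neurexin gene Nrxn3 (0.992) and Mfsd6 (0.983), and Cacna1g to the neurotrophin receptor gene Ntrk3 (0.985) and Plxna4 (0.979). Cacna1d was closest to Afdn (0.986) and RGD1307100 (0.983), and Cacna1c to the GABA-B receptor gene Gabbr2 (0.982) and Celsr2 (0.980). Cacna1a was closest to Shisa7 (0.967). For Cacna1h the closest genes were Ksr1 (0.958) and Trim2 (0.953), for Cacna1i the postsynaptic scaffold gene Shank2 (0.960) and Ppp2r2c (0.958), and for Cacna2d2 the matrix gene Tnr (0.948) and Tmem87b (0.940).

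The make-up of the pore-forming pool was described as each gene's share of the reads assigned to the 8 Cacna1 genes, which does not depend on library scaling. Shares are compared between groups only, since gene length differs between genes. Cacna1e held 14.6 ± 0.953% in KI 3 Class V (SD, n = 4) and 7.51 ± 4.79% in KI sham (SD, n = 4), with 13.8% as the highest KI sham. Cacna1a held 24.3 ± 1.34% in KI 3 Class V (SD, n = 4) and 29.5 ± 5.51% in KI sham (SD, n = 4). In the KA model Cacna1g held 10.7 ± 1.23% in 3 Class V (SD, n = 3) and 7.59 ± 1.36% in sham (SD, n = 7), and Cacna1i held 13.7 ± 2.60% in 3 Class V (SD, n = 3) and 18.9 ± 5.65% in sham (SD, n = 7). The ranges of Cacna1g, 9.76 to 12.1% in KA 3 Class V and 5.77 to 10% in KA sham, overlapped slightly. In KI the Cacna1g share was also higher, at 9.14 to 10% in 3 Class V and 7.18 to 8.47% in sham, without overlap. The Cacna1a ranges in KI, 22.4 to 25.5% in 3 Class V and 25.9 to 37.6% in sham, did not overlap either. The ranges of the other Cacna1 genes overlapped in KI. These shares were not tested.

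Other subunit genes were taken from a fixed list of 17, which held the remaining pore, alpha2delta, beta and gamma genes and the related sodium leak channel gene Nalcn, and 16 of them were tested. In KI 2 rose, 0 fell and 14 did not pass, with a median log2 fold change of 0.33. Of all genes, 4.74% were called higher and 5.25% lower in KI. The 2 were Cacnb2, a beta subunit that brings the pore to the membrane (74.4 ± 8.40 CPM in KI 3 Class V and 45.9 ± 6.81 CPM in KI sham, SD, n = 4 each), and Cacng5, a gamma subunit of the family that also regulates AMPA receptors (5.31 ± 1.10 CPM in KI 3 Class V and 2.26 ± 0.963 CPM in KI sham, SD, n = 4 each). Their log2 fold changes were 0.70 ± 0.19 and 1.22 ± 0.34 (edgeR adjusted p = 0.0381 and 0.0403). Cacnb3, the beta subunit with the smallest p of this list in KA, had 217 ± 20.1 CPM in KA 3 Class V (SD, n = 3) and 276 ± 33.9 CPM in KA sham (SD, n = 7), a log2 fold change of −0.35 ± 0.11 that did not pass (edgeR adjusted p = 0.211). Of the 16 tested, 0 passed in KA and 2 had an unadjusted p below 0.05, both on the lower side. Of all genes, 6.34% were higher and 3.59% lower at that p. Cacna1s of skeletal muscle and Cacna1f of the retina were at 0.0956 to 0.450 CPM in every library.

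Proteins that regulate or anchor the channels were measured by 27 listed genes. In KI 6 rose and 0 fell (median log2 fold change 0.30), against 4.74% of all genes called higher and 5.25% lower. Erc2 and Erc1, scaffolds of the release site, were at 1.46 ± 0.37 and 0.95 ± 0.27, and the anchoring protein gene Akap5 was at 1.05 ± 0.29 (edgeR adjusted p = 0.0331, 0.0396 and 0.0396). Erc2 had 127, 112, 123 and 85.4 CPM in KI 3 Class V, against 16.3, 37.2, 46.5 and 62.6 CPM in KI sham. All KI 3 Class V libraries lay above all KI shams, as for 12.1% of all genes, and KI sham 4 was again the highest sham. In KA 0 of the 27 passed and 3 had an unadjusted p below 0.05, all on the lower side. Of all genes, 6.34% were higher and 3.59% lower at that p. The smallest p belonged to the potassium channel gene Kcnn1, at −0.38 ± 0.12, and to the calmodulin gene Calm3, at −0.37 ± 0.12 (edgeR adjusted p = 0.203 and 0.214).

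Calcium stores, pumps and buffers were measured by 20 listed genes, of which 3 rose and 0 fell in KI (median 0.43). The shares of all genes were 4.74% higher and 5.25% lower. Itpr1, the main inositol trisphosphate receptor of neurons, had 727, 575, 712 and 737 CPM in KI 3 Class V, against 255, 455, 462 and 454 CPM in KI sham. All 3 Class V libraries were above all shams, as for 12.1% of all genes, and the rise was 0.76 ± 0.16 (SE, edgeR adjusted p = 0.0237). Itpr3 and Slc8a1 rose by 0.70 ± 0.22 and 0.94 ± 0.28 (edgeR adjusted p = 0.0488 and 0.0455). In KA 0 of the 20 passed and 1 had an unadjusted p below 0.05, against 6.34% of all genes on the higher side and 3.59% on the lower. It was Itpr1, at −0.40 ± 0.16 (edgeR adjusted p = 0.368).

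Calcium-responsive kinases, phosphatases and transcription factors were measured by 19 listed genes. In KI 3 rose and 0 fell (median 0.36), against 4.74% of all genes called higher and 5.25% lower. The 3 were the calcineurin subunit gene Ppp3cb (0.50 ± 0.13), Mef2a (0.75 ± 0.22) and the protein kinase C gene Prkcb (0.47 ± 0.12), with edgeR adjusted p from 0.0328 to 0.0418. In KA 0 passed and 3 had an unadjusted p below 0.05, against 6.34% of all genes on the higher side and 3.59% on the lower. The kinase gene Camkk2 was at −0.63 ± 0.16 (edgeR adjusted p = 0.109) and Prkcb at −0.42 ± 0.12 (edgeR adjusted p = 0.162). For Itpr1 and Prkcb the KA change minus the KI change itself passed, at −1.16 ± 0.23 and −0.88 ± 0.17 (edgeR adjusted p = 0.0153 and 0.0148). These were 1 of 20 and 1 of 19 genes in their lists. Of all genes, 3.80% were called in that test, 0.652% as lower. Without KA 3 Class V 3 neither Itpr1 nor Prkcb passed (edgeR adjusted p = 0.0518 for both). Of 5 transcription factor genes known from studies of channel gene promoters, 0 passed in either model. Mtf1 (higher) and Usf2 (lower) had an unadjusted p below 0.05 in KI, as did 17.2% of all genes on the higher side and 18.2% on the lower. There Mtf1 stood at 0.36 ± 0.14, Egr1 at 0.38 ± 0.23, Sp1 at 0.11 ± 0.16, Rest at −0.05 ± 0.40 and Usf2 at −0.37 ± 0.14 (edgeR adjusted p from 0.0736 to 0.930).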

How the data were processed

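Per the file headers and values, the authors deposited 1 table of raw counts of reads per gene symbol, with 1 column for each of 18 libraries and no normalization. The build rn6 and the tools HISAT2, featureCounts, Trimmomatic, FastQC and DESeq2 are listed, per the submitters' processing notes. The sources used here give no versions, annotation, strand setting or handling of reads shared between genes. Columns were matched by library name (0 unmatched) and groups came from titles. The labels do not state that every library is a separate animal, so p-values may measure partly technical spread.

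Tests were run in R 4.3.3 with edgeR 4.0.16: filterByExpr, TMM factors, group means over all 18 libraries (14 residual degrees of freedom), robust quasi-likelihood F tests, two-sided, Benjamini-Hochberg adjustment over 13338 genes and a threshold of 0.05. SE is the absolute log2 fold change over the square root of F. The 95% intervals use the same fit. CPM is a count per 1000000 of TMM-scaled library size, and centred log2 CPM used a prior count of 2. The 36 pairs of libraries within groups differed by more than sampling noise (ratio of chi-square to its degrees of freedom 20.5 to 604). The procedure was tested on simulated counts drawn for each gene separately, so shifts shared by many genes of a library were not covered.

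The 10 genes, the lists (92 pathway and 106 marker entries) and the sets of libraries left out together were chosen with earlier results of these data known. All 10 genes are named. From each pathway list, the rule took up to 3 genes with the smallest p in KA and in KI, and for likeness the genes with the highest Pearson r. Of these, 1 result is not reported here. Promoter sequences are from RefSeq (GRCr8). Alternatives were DESeq2 1.42.0, limma-voom (limma 3.58.1) with quality weights, RLE and upper quartile scaling, other filters, each model or the 11 shams alone, a replicate block, a ribosomal protein covariate and leaving out libraries.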

Additional observations from a re-analysis of the deposited data

Results flagged for a closer look

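Of 111 sets of CPM values (1 gene in 1 group of 4 to 7 libraries), 12 held a library whose gap to the next was large against the range of its group (Dixon's criterion). Chance flags about 1 in 20 sets that are independent and normally distributed. These sets share libraries and many of the genes vary together, so the count cannot be set against that rate. Among the channel genes, Cacna1b was at 105 CPM in KI sham 4, against 51.1 to 55.8 CPM in the other KI shams, and Cacna1i was at 31.2 CPM in KI sham 1, against 93.8 to 106 CPM. KI sham 4 was also highest for Nalcn (119 CPM, others 68.7 to 74.1), Egr1 (31.8 CPM, others 21.5 to 23.3) and Mtf1 (42.5 CPM, others 27.4 to 29.1). KI sham 1 was highest for Cacng2 (58.2 CPM, others 25.1 to 30.5) and lowest for Itpr1 (255 CPM, others 454 to 462). KI 3 Class V 2 was lowest for Itpr1 (575 CPM, others 712 to 737). KA sham 2 was highest for Cacnb3 (350 CPM, others 254 to 278), Cacng7 (112 CPM, others 74.6 to 90.3) and Ncs1 (292 CPM, others 160 to 217). KA sham 4 was lowest for Prkcb (246 CPM, others 295 to 328).

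For Itpr1 and Prkcb the changes in the models differed by the test of the difference itself, at −1.16 and −0.88 (KA change minus KI change, edgeR adjusted p = 0.0153 and 0.0148). Of all genes, 3.80% were called in that test, 0.652% as lower. Neither Itpr1 nor Prkcb passed without KA 3 Class V 3 (0.0518 for both) or with a replicate block (0.13 for both).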

How the results depend on the processing

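Shares in parentheses are of all genes tested in the same fit. The count of channel genes called in KI was 4 (9.99%), and 8 with DESeq2 (22.3%), 10 with limma-voom (55.2%), 0 with the replicate block (0%), 0 with the ribosomal protein covariate (0.787%), 10 without KI sham 3 and 4 together (28%), 0 without the 3 libraries rich in genes resembling ribosomal RNA (0.128%) and 0 to 10 when each library was left out (0.0675% to 32.3%). For KA it was 0 (0.172%), and 1 with limma-voom (5.44%). For the KA change minus the KI change it was 0 (3.80%), and 2 with DESeq2 (8.39%), 10 with limma-voom (35.8%) and 2 without KI sham 3 and 4 (4.87%). It was 0 to 4 when each library was left out (0.417% to 6.73%). Between the shams it was 0 (0.00750%), and 2 with limma-voom (3.08%) and 2 without KI sham 3 and 4 (4.67%). The cause of these shifts was not tested. Other scalings and filters kept the KI count at 3 to 5, and each model alone gave 4 in KI and 0 in KA. The difference between models cannot be had from models fitted alone. Of the genes named, Cacng2 in KI turned from −0.04 to 0.29 with limma-voom (adjusted p = 0.0349).

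Libraries with the same replicate number did not deviate together (r of deviations −0.154 to 0.009 in KA and −0.166 to −0.068 in KI), so the numbers were not taken as pairs. With the replicate block 0 genes of the whole table were called in KI, in place of 1332, and the median of the channel genes was 1.06. The KA change minus the KI change of Itpr1 and Prkcb also did not pass there (−1.30 and −0.90, edgeR adjusted p = 0.13 for both), with 0.0825% of all genes called. Each channel gene had at least 214 counts in each library. Levels cannot be compared between genes because lengths were not used here.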
